A study of Mus musculus with 6 samples.

Results

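Collagen genes encode the chains of the collagens, the proteins of the extracellular matrix that wind around each other into a triple helix. Their members were the array rows with exactly 1 gene symbol made of Col, a number, the letter a and a number. Where a gene had several rows, its brightest row on average was kept. This gave 44 collagen genes among 22180 genes with a row, and each of the 44 carried the same symbol in RefSeq (assembly GRCm38.p6). Of the 44, 40 passed a filter on dim rows, which required a mean log2 signal of at least 5.02 over all arrays. Col10a1, Col19a1, Col28a1 and Col6a5 did not pass and were not tested.

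RNA was measured in dissected cortex of E12.5 mouse embryos, midway through gestation, with 1 embryo and 1 array per sample. The 3 embryos called DKO carried loxP-flanked alleles of Lats1 and Lats2 (Lats1F/F;Lats2F/F) together with Nestin-Cre, a transgene used to recombine such alleles in neural progenitors and their descendants. Cells of other origin in the same piece of tissue, such as vessels and meninges, are largely not its target. The labels call the other 3 embryos control without giving their alleles, and they state that the samples were untreated. Lats1 and Lats2 are the Hippo pathway kinases that restrain the transcriptional coactivators YAP and TAZ.

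Collagens are grouped by the structures they build. Fibrillar collagens form the banded fibrils of connective tissue, FACITs (fibril-associated collagens with interrupted triple helices) sit on the surface of those fibrils, and type IV collagens form the sheet of the basement membrane. In the developing cortex the pial basement membrane and the vessels hold type IV collagen, and the overlying meningeal fibroblasts make fibrillar collagen.

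The values are log2 signals from RMA (robust multi-array average), so a difference of 1 is a 2-fold difference. Array medians lay between 5.94 and 5.97, and precision was limited by having 3 arrays in each group. Lats1 was lower in DKO, with a log2 fold change of -0.91 ± 0.14 (SE), and Lats2 was not, at 0.24 ± 0.10 (SE). Their limma adjusted p values were 0.0189 and 0.285. Leaving out control 1, control 3, DKO 1 or DKO 3 ended the Lats1 call (limma adjusted p from 0.0571 to 0.0875). For Lats2 every DKO array lay above every control array, at 7.18 to 7.36 against 6.84 to 7.16. Which exons are deleted was not stated, and a row outside them need not show the deletion. The 9 cortical markers measured all passed the filter and 0 were called, but 7 were lower on average in DKO (median -0.18). Over all genes tested 60.2% were lower and the median was -0.03. Neurod6 was at -0.54, Eomes at -0.44, Tbr1 and Emx1 at -0.30, Emx2 at -0.18, Lhx2 at -0.17 and Pax6 at -0.07. Sox2 was at 0.07 and Nes at 0.24. The summed linear signal of the 9 was 6307 to 6625 in DKO and 6708 to 7503 in control, without overlap. The part of this in the collagen values was not tested. DKO 2 was low in some marker lists. Its summed linear signal of 13 meningeal and fibroblast markers was 1146, against 1548 and 1614 in the other DKO arrays and 1507 to 1792 in control. It was the lowest of the 6 arrays for 25.2% of all 16724 genes tested, a share not computed for the other arrays. Values without DKO 2 are given beside several of those that it moves. By Xist and 3 Y-linked genes, control held 2 female and 1 male embryo and DKO 1 female and 2 male.

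Of the 40 collagen genes tested, 1 rose, 0 fell and 39 did not pass. The gene that rose was Col12a1, which encodes the chain of type XII collagen, a FACIT. Over all genes tested 1.36% rose and 0.359% fell (limma, adjusted p under 0.05 over all genes), so 1 of 40, or 2.5%, is close to the share of all genes called in either direction, 1.72%. At an unadjusted limma p under 0.05 there were 10 of 40 collagen genes, or 25%, against 15.6% of all genes. Means were lower in DKO for 25 of the 40 (62.5%, against 60.2% of all genes), which is near the background share. The median log2 fold change of the 40 was -0.05 and that of all genes tested was -0.03. The direction of this small shift turned on DKO 2: without that array 19 of 40 collagens had lower means and their median was 0.009, while without DKO 3 there were 28.

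Col12a1 stood at 5.80, 5.99 and 5.51 in control 1 to control 3 and at 7.81, 7.39 and 7.44 in DKO 1 to DKO 3. Every DKO array lay far above every control array, and the gap between the groups was wider than the spread within either. The means were 5.77 ± 0.24 (SD, n = 3) and 7.55 ± 0.23 (SD, n = 3), a 3.43-fold increase. The log2 fold change was 1.78 ± 0.14 (SE), with a 95% interval from 1.45 to 2.11 (limma adjusted p 6.06e-04). Permuting the 6 arrays exactly, two-sided, gave p = 0.10, the smallest that 3 arrays against 3 allow. The increase was 1.62 in DKO 2, 1.67 in DKO 3 and 2.04 in DKO 1 when each array was set against the control mean. Dropping any 1 of the 6 arrays kept the call. The log2 fold change then ranged from 1.65 to 1.89 and the limma adjusted p from 0.00149 to 0.00430. Without DKO 2 the log2 fold change was 1.86 ± 0.16 (SE).

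**Figure D1:**
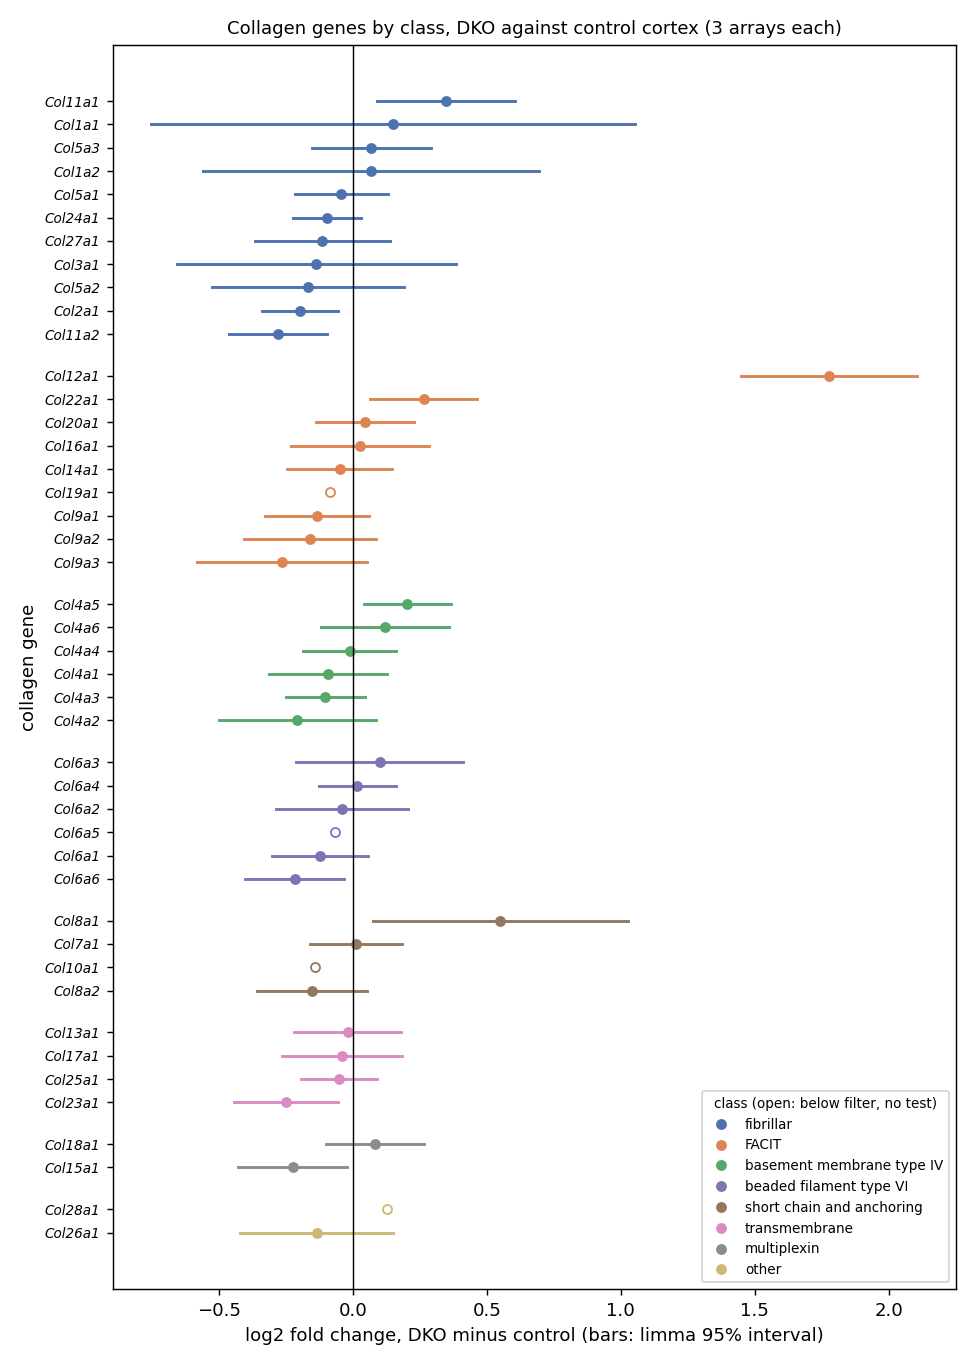
Log2 fold change (DKO minus control, x axis) of the 44 collagen genes (y axis), coloured by class, with points for the estimate, bars for the limma 95% interval over 3 arrays per group, and open points for the 4 genes below the filter, which have no interval. Col12a1 at 1.78 lies to the right of every other interval, the widest intervals belong to Col1a1, Col1a2 and Col3a1, and most genes lie within 0.3 of 0.

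The FACITs as a class did not share this change. Of 9 genes in the class 8 were tested, 1 rose and 7 did not pass, with 4 higher and 4 lower means in DKO and a median of -0.01. Col22a1, the chain of type XXII collagen found at tissue junctions, had the next largest value. It stood at 5.63, 5.93 and 5.78 in control and at 5.96, 6.13 and 6.05 in DKO, so the groups did not overlap. It differed by 0.26 ± 0.09 (SE, limma adjusted p 0.197) on the log2 scale, and it is named here after its values were seen. Col14a1, the FACIT closest to Col12a1 in domain layout, was at -0.05 ± 0.09 (SE), with a 95% interval from -0.24 to 0.15, and it was the dimmest collagen to pass the filter. Col16a1 and Col20a1 were at 0.03 and 0.05.

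The 3 chains of type IX collagen, a FACIT of cartilage fibrils assembled from Col9a1, Col9a2 and Col9a3, all had lower means in DKO, and none passed the test. Col9a3 stood at 6.47, 6.50 and 6.34 in control and at 5.86, 6.18 and 6.48 in DKO. The groups overlapped because DKO 3 lay among the controls, and the log2 fold change was -0.26 ± 0.14 (SE, limma adjusted p 0.417). Col9a2 went from 7.80 ± 0.04 (SD, n = 3) to 7.65 ± 0.23 (SD, n = 3), a log2 fold change of -0.16 ± 0.11 (SE). It was at -0.28 ± 0.08 (SE, limma adjusted p 0.168) without DKO 2 and at -0.05 ± 0.09 (SE) without DKO 1. Col9a1 had a log2 fold change of -0.13 ± 0.09 (SE). In all 3 genes DKO 1 was the lowest array.

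Among the 11 fibrillar collagens none passed the test. There were 4 higher and 7 lower means in DKO, the median was -0.095, and the values ran from -0.28 to 0.35. The sign of that median turned on 1 array: it was 0.0204 without DKO 2, with 4 of 11 means lower, and -0.1815 without DKO 1, with 9 of 11. Groups did not overlap for 4 of them, and these included all 3 genes whose products combine in type XI collagen, the thin-fibril collagen of cartilage. They moved in different directions. Col11a1 stood at 6.57, 6.55 and 6.35 in control and at 7.04, 6.61 and 6.86 in DKO, above control on every array. Col11a2 stood at 6.07, 6.20 and 5.97 in control and at 5.84, 5.70 and 5.87 in DKO, below control on every array. Col2a1, which encodes the chain of type II collagen and also a chain of type XI, stood at 7.43, 7.53 and 7.41 in control and at 7.23, 7.30 and 7.25 in DKO.

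The corresponding log2 fold change was 0.35 ± 0.11 (SE, limma adjusted p 0.191) for Col11a1, -0.28 ± 0.08 (SE, limma adjusted p 0.146) for Col11a2 and -0.20 ± 0.06 (SE, limma adjusted p 0.188) for Col2a1. The adjusted p of Col11a2 was the smallest of the 39 collagen genes that were not called. Without DKO 2, the array in which Col11a1 was lowest among the DKO arrays, Col11a1 was at 0.46 ± 0.10 (SE) with a limma adjusted p of 0.0707. Col24a1, a minor fibrillar chain, also had no overlap between groups, with a log2 fold change of only -0.095 ± 0.056 (SE). It is named here after its values were seen. Its control arrays spread over an SD of 0.0036 and its DKO arrays over 0.0066, both among the smallest of all genes tested. Over the 40 collagen genes, 10 had groups that did not overlap (25%, against 21.6% of all genes), 4 with DKO above (10% of the members, against 8.22% of all genes) and 6 with DKO below (15%, against 13.4%).

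The main collagens of connective tissue had no common shift but varied widely between DKO embryos. These are Col1a1 and Col1a2, whose chains form type I collagen, Col3a1, the chain of type III collagen, and Col5a2, a chain of the type V collagen that nucleates type I fibrils. Col3a1 and Col5a2 are named here after their values were seen. Col1a1 stood at 8.26, 8.12 and 7.996 in control and at 9.32, 7.39 and 8.12 in DKO. DKO 1 was the highest of the 6 arrays, DKO 2 the lowest, and DKO 3 lay among the controls. Col1a2 followed the same order, at 7.82, 7.56 and 7.58 in control and 8.40, 7.08 and 7.70 in DKO. Col3a1 did so too, at 7.98, 7.92 and 7.63 in control and 8.17, 7.14 and 7.81 in DKO. DKO 1 was the highest and DKO 2 the lowest array for 5 of the 40 collagens tested, the others being Col6a2 and Col6a3, against 4.25% of all genes.

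The DKO arrays of Col1a1 spanned 1.93 on the log2 scale, or 3.82-fold, while its control arrays spanned 1.20-fold. Its SD was 0.98 over the DKO arrays and 0.13 over the control arrays, against medians over all genes of 0.0896 and 0.0802. Among 16724 genes tested, 14 had a larger SD over the DKO arrays than Col1a1, 25 a larger one than Col1a2 and 53 a larger one than Col3a1. Col5a2 had an SD of 0.36 in DKO and 0.08 in control, since DKO 2 at 6.18 lay well below the other 5 arrays, which ran from 6.68 to 6.85. An SD over the DKO arrays at least 3 times that over control was found for 7 of 40 collagen genes, or 17.5%, against 13% of all genes.

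**Figure D2:**
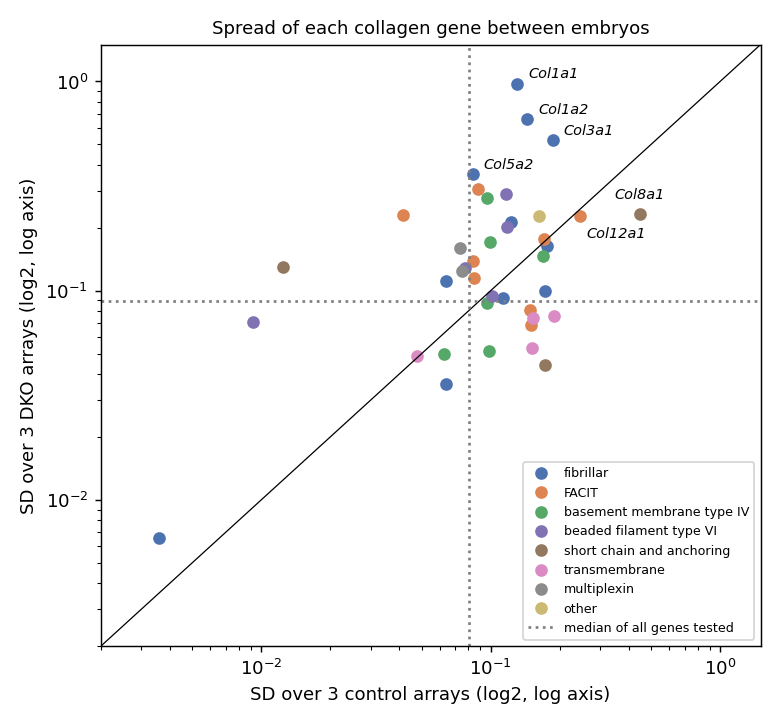
SD over the 3 DKO arrays (y axis, log2 units, log axis) against SD over the 3 control arrays (x axis, log2 units, log axis) for the 40 collagen genes tested, coloured by class, with a line of equal SD and dotted lines at the medians of all genes tested (0.0802 and 0.0896). Col1a1, Col1a2, Col3a1 and Col5a2 lie highest above the dotted line for DKO, while Col12a1 lies near the line of equal SD.

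With such spread the comparison of these genes left wide intervals. The log2 fold change of Col1a1 was 0.15 ± 0.40 (SE), with a 95% interval from -0.75 to 1.05 and a limma adjusted p of 0.891. Col1a2 was at 0.07 ± 0.27 (SE), Col3a1 at -0.14 ± 0.23 (SE) and Col5a2 at -0.17 ± 0.16 (SE). Which array was left out decided the sign. Col1a1 was at -0.37 without DKO 1 and 0.60 without DKO 2, and Col1a2 at -0.27 and 0.39. Col3a1 was at -0.37 without DKO 1 and 0.15 without DKO 2, and Col5a2 at -0.28 and 0.04. None of these fits called any of the 4 genes.

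Some genes of fibroblasts and smooth muscle followed the same order across the DKO arrays. The marker lists as a whole did so for DKO 2, but for DKO 1 only the pericyte and smooth muscle list did. Relative to the control mean on the log2 scale, Col1a1 was at 1.20 in DKO 1 and -0.74 in DKO 2, and Col3a1 at 0.33 and -0.70. Lum, a small proteoglycan of collagen fibrils, stood at 7.89 in DKO 1, 6.79 in DKO 2 and 7.63 in DKO 3, with control arrays from 7.415 to 7.78. Acta2, the actin of smooth muscle, stood at 9.55, 7.14 and 8.09 in DKO 1 to DKO 3, with control arrays from 7.93 to 8.31. Lum and Acta2 were chosen after their values were seen. Of 13 meningeal and fibroblast markers, DKO 2 was the lowest array for 9, of 10 pericyte and smooth muscle markers for 7, and of 12 endothelial markers for 10. All 35 lay above the filter limit, and 0 of them rose or fell.

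The summed linear signal of the pericyte and smooth muscle list was 2013 in DKO 1, 1150 in DKO 2 and 1455 in DKO 3, against 1514 to 1634 in control. In this sum the excess of DKO 1 came from Acta2. Without Acta2 the other 9 genes summed to 1266 in DKO 1, 1009 in DKO 2 and 1183 in DKO 3, against 1215 to 1316 in control. Taken singly, Pdgfrb, Tagln and Anpep were also above every control array in DKO 1. Rgs5, Cspg4 and Notch3 were below every control array there. The endothelial sum was 2070, 1533 and 2214 in DKO 1 to DKO 3 and 2212 to 2495 in control, so DKO 1 was below every control array there. In DKO 1 the meningeal and fibroblast sum, at 1614, lay within the control range of 1507 to 1792. Of that list only Lum and, by little, Foxc1 were above every control array in DKO 1. Slc6a13 and, by little, Tbx18 were below every control array there, and the other markers lay within the control range. Thus DKO 2 had the lowest sum in all 3 lists. In DKO 1, where Col1a1 was highest, only the pericyte and smooth muscle sum was above control, and not once Acta2 was left out. The part of these cells in the values of the fibrillar collagens was not tested. In bulk tissue, fewer cells of a type and less RNA per cell cannot be told apart. Among the collagens tested, DKO 2 was the lowest of the 6 arrays for 18 of 40, or 45%, against 25.2% of all genes tested. For Col12a1, DKO 2 lay 1.62 above the control mean and close to DKO 3. Within DKO its order was that of Col1a1, with DKO 1 highest and DKO 2 lowest.

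**Figure D3:**
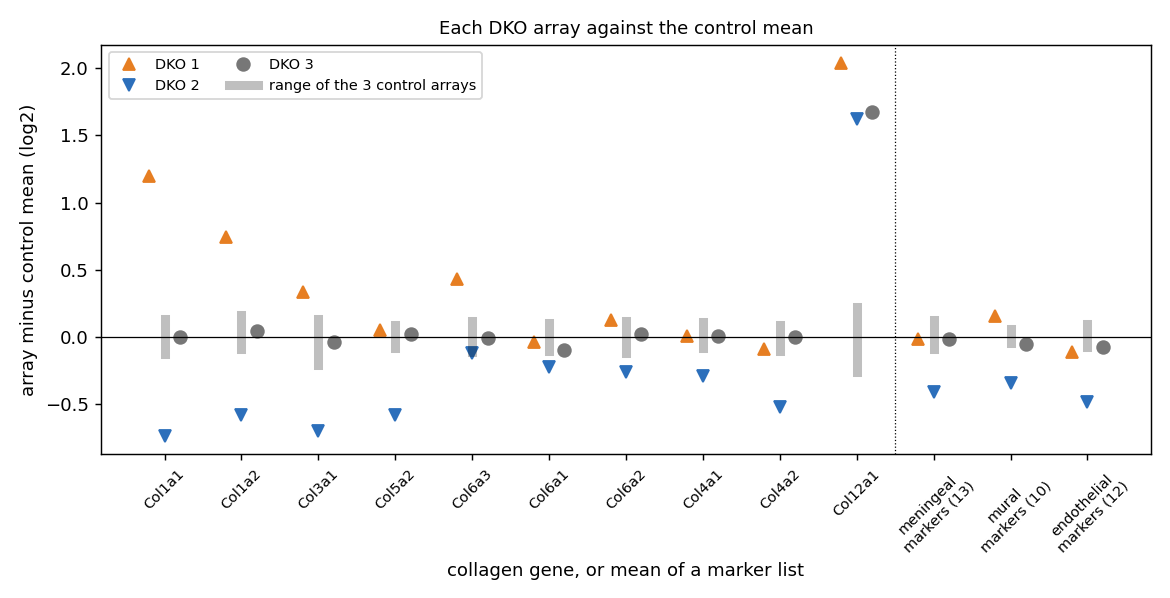
Each DKO array minus the control mean (y axis, log2) for 10 collagen genes and for the mean of 3 marker lists (x axis; mural markers are the pericyte and smooth muscle list), with one symbol per DKO array and a grey bar for the range of the 3 control arrays. DKO 2 lies below the control range for Col1a1, Col1a2, Col3a1, Col5a2, Col6a1, Col6a2, Col4a1, Col4a2, the 3 marker lists and, by less than the symbol's size, Col6a3. DKO 1 lies above it for Col1a1, Col1a2, Col3a1, Col6a3, the mural markers and, again by less than the symbol's size, Col6a2, and all 3 DKO arrays lie above it for Col12a1.

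Type IV collagen, the network of basement membranes, showed no called change. All 6 chains were tested, with 2 higher and 4 lower means in DKO and a median of -0.05. Col4a1 and Col4a2, whose chains combine in the type IV collagen of nearly all basement membranes, had means of 7.21 ± 0.17 (SD, n = 3) and 6.84 ± 0.28 (SD, n = 3) in DKO and of 7.30 ± 0.10 (SD, n = 3) and 7.04 ± 0.10 (SD, n = 3) in control. Their log2 fold changes were -0.09 ± 0.10 (SE, limma adjusted p 0.698) and -0.21 ± 0.13 (SE, limma adjusted p 0.503). Both were lowest in DKO 2, at 7.01 and 6.52, and without DKO 2 the values were 0.0061 and -0.05. For the 12 endothelial markers, all lower on average in DKO with 0 calls, the median was -0.18 beside -0.03 for all genes. DKO 2 was the lowest array for 10 of the 12. The mean log2 signal of the list was 7.1102, 6.7391 and 7.1527 in DKO 1 to DKO 3, against 7.1513 to 7.3218 in control. The part of vessel cells in the type IV values was not tested.

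Col4a5, a chain that combines with Col4a6 or with Col4a3 and Col4a4 in specialised basement membranes, had higher values in DKO. It stood at 6.24, 6.23 and 6.06 in control and at 6.42, 6.39 and 6.32 in DKO, so every DKO array was above every control array. It differed by 0.20 ± 0.07 (SE, limma adjusted p 0.220). Its partner Col4a6 was at 0.12 ± 0.10 (SE), while Col4a3 was at -0.10 ± 0.06 (SE) and Col4a4 at -0.01 ± 0.08 (SE). Col4a5 and Col4a6 lie on the X chromosome and the groups differed in the number of females. With embryo sex as a covariate, an alternative chosen after seeing the data, Col4a5 was at 0.1759 and Col4a6 at 0.1848, and neither was called.

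Type VI collagen, which forms beaded filaments around cells, had 5 of 6 genes tested and 0 calls, with a median of -0.04 that became 0.0391 without DKO 2 and 0.0191 without control 1. Its main chains Col6a1, Col6a2 and Col6a3 had log2 fold changes of -0.12 ± 0.08 (SE), -0.04 ± 0.11 (SE) and 0.10 ± 0.14 (SE). Col6a3 reached 6.91 in DKO 1 and was between 6.36 and 6.60 on the other 5 arrays. Its log2 fold change was 0.21 without DKO 2 and -0.0646 without DKO 1. Col6a6, an alternative to Col6a3 in the same assembly, was lower on every DKO array, at 6.02, 6.22 and 6.26 against 6.39, 6.46 and 6.30. The difference was -0.22 ± 0.08 (SE, limma adjusted p 0.2495).

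Col8a1 had the largest change after Col12a1 among the collagens tested and did not pass the test. It encodes a short chain of type VIII collagen, which forms hexagonal networks and is known from vessel walls and from the cornea. It stood at 5.70, 6.42 and 5.61 in control and at 6.68, 6.21 and 6.49 in DKO. The groups overlapped because control 2 lay above DKO 2, while the other 2 control arrays were lower than all DKO arrays. The log2 fold change was 0.55 ± 0.21 (SE), a 1.46-fold difference, with a 95% interval from 0.08 to 1.03 and a limma adjusted p of 0.253. Without control 2 it was 0.81 ± 0.13 (SE) and passed, with a limma adjusted p of 0.0398. With any other array left out it ranged from 0.40 to 0.67 and did not pass. Col12a1 and Col8a1 were 2 of 40 collagens with an absolute log2 fold change of 0.5 or more, or 5%, against 1.55% of all genes. Col8a2, the other chain of type VIII collagen, was at -0.15 ± 0.09 (SE), and its 95% interval ended at 0.05. Col7a1, the anchoring fibril collagen of skin, was at 0.01 ± 0.08 (SE).

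**Figure D4:**
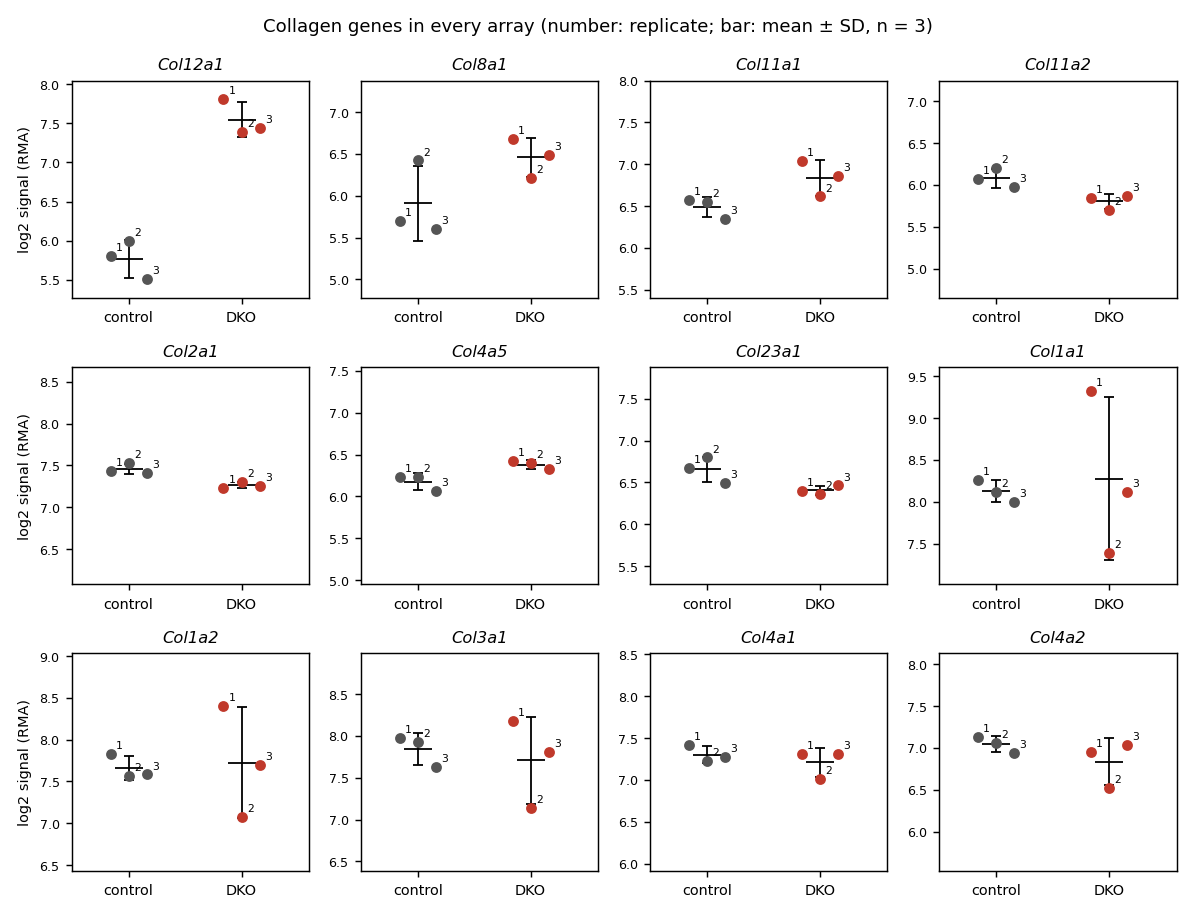
Log2 RMA signal (y axis, separate scale in each panel) of 12 collagen genes in the 3 control and 3 DKO arrays, with a numbered point for each replicate and a bar for the mean ± SD. The groups of Col12a1 are far apart, control 2 of Col8a1 lies with the DKO arrays, Col11a1 and Col4a5 are higher and Col11a2, Col2a1 and Col23a1 lower on every DKO array, and Col1a1, Col1a2 and Col3a1 spread widely in DKO.

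The transmembrane collagens, which cells carry on their surface and can shed, all had lower means in DKO. All 4 were tested, 0 passed, and the median was -0.05. Without control 2, 2 of the 4 had lower means. Col23a1 stood at 6.67, 6.80 and 6.50 in control and at 6.40, 6.36 and 6.46 in DKO, with no overlap. The difference was -0.25 ± 0.08 (SE, limma adjusted p 0.211). The other 3, Col13a1, Col17a1 and the neuronal Col25a1, lay between -0.05 and -0.02.

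Multiplexins are basement membrane collagens that carry heparan or chondroitin sulfate chains and release fragments such as endostatin from their ends. Col15a1 stood at 6.19, 6.06 and 6.06 in control and at 5.74, 5.84 and 6.06 in DKO. Every DKO array was below every control array, but DKO 3 (6.055) and control 2 (6.0592) were nearly equal. The log2 fold change of Col15a1 was -0.22 ± 0.09 (SE, limma adjusted p 0.279) and that of Col18a1, the source of endostatin, was 0.08 ± 0.08 (SE). Col26a1, which belongs to none of these classes, was at -0.13 ± 0.12 (SE), and at -0.0063 without DKO 2. The 4 genes below the filter had differences of -0.14 for Col10a1, -0.09 for Col19a1, -0.07 for Col6a5 and 0.13 for Col28a1, untested. The dimmest collagen that passed was Col14a1, with a mean of 5.30 over the 6 arrays, and the brightest that did not was Col10a1, with 4.95.

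The 39 collagens not called had log2 fold changes from -0.28 to 0.55, with a median size of 0.12. For 34 of them the whole 95% interval lay within a 1.5-fold change in either direction. The 5 whose intervals reached past 1.5-fold were Col1a1, Col1a2, Col3a1, Col11a1 and Col8a1. The highest upper bound of these 39 intervals was 1.05, that of Col1a1, and that of Col12a1 began at 1.45.

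Collagen chains are hydroxylated and folded in the endoplasmic reticulum, trimmed by proteases after secretion and bound by receptors on cells. Of 26 processing genes measured 6 rose and 0 fell, against 1.36% and 0.359% of all genes tested, with a median of 0.14. This list, like the others, was chosen with earlier results of these data known, so its share is no test of the list. The 6 genes that rose act at several steps. P4ha3 encodes a catalytic subunit of prolyl hydroxylase and rose by 1.27 ± 0.11 (SE), and Plod2 encodes a lysyl hydroxylase of collagen and rose by 0.65 ± 0.12 (SE). Adamts3, a protease that removes the amino-terminal propeptide of procollagen, rose by 0.91 ± 0.12 (SE). Tll1 and Tll2, proteases of the family that cuts the carboxy-terminal propeptide, rose by 0.66 ± 0.11 (SE) and 1.25 ± 0.14 (SE). Sparc, a collagen-binding matrix protein, rose by 0.78 ± 0.10 (SE). The limma adjusted p values of these 6 lay between 9.57e-04 and 0.0346. The calls of P4ha3, Tll2, Adamts3 and Sparc held whichever array was dropped. Those of Plod2 and Tll1 were lost in 5 of the 6, with limma adjusted p up to 0.126 without control 1 for Plod2 and up to 0.0948 without control 1 for Tll1.

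Both calls held without DKO 2. The call of Tll1 was also lost with the replicate block (limma adjusted p 0.0700), and with embryo sex as a covariate those of Tll1 (limma adjusted p 0.0590) and Plod2 (limma adjusted p 0.0677).

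Among 10 measured collagen receptors, 1 rose and 0 fell, against 1.36% and 0.359% of all genes tested, with a median of -0.05. Ddr2, a receptor tyrosine kinase activated by fibrillar collagen, stood at 6.75, 6.53 and 6.44 in control and at 7.89, 7.18 and 7.59 in DKO. It rose by 0.98 ± 0.16 (SE), or 1.98-fold, with a limma adjusted p of 0.0238. Its call was lost without control 2 (limma adjusted p 0.0782), control 3 (0.1045), DKO 1 (0.0627) or DKO 3 (0.0889), and with embryo sex as a covariate (0.0543). Adgrg1, the receptor of type III collagen on neural progenitors, was at -0.21 ± 0.06 (SE, limma adjusted p 0.152). Ddr1, the relative of Ddr2 in epithelia, was at 0.07 ± 0.07 (SE).

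Of 14 proteins that associate with collagen fibrils, 1 rose and 0 fell, against 1.36% and 0.359% of all genes tested. Their median was -0.11. The gene that rose was Thbs1, the secreted glycoprotein thrombospondin 1, at 9.44-fold. The fibril proteoglycan Dcn, which is also one of the fibroblast markers, was not called, at -0.38 ± 0.21 (SE, limma adjusted p 0.435). It stood at 8.585, 7.74 and 8.547 in DKO 1 to DKO 3, with control arrays from 8.555 to 8.88. Of 15 laminins and other basement membrane partners and 9 tested genes of collagen degradation, 0 rose and 0 fell. Their medians were -0.04 and 0.05.

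**Figure D5:**
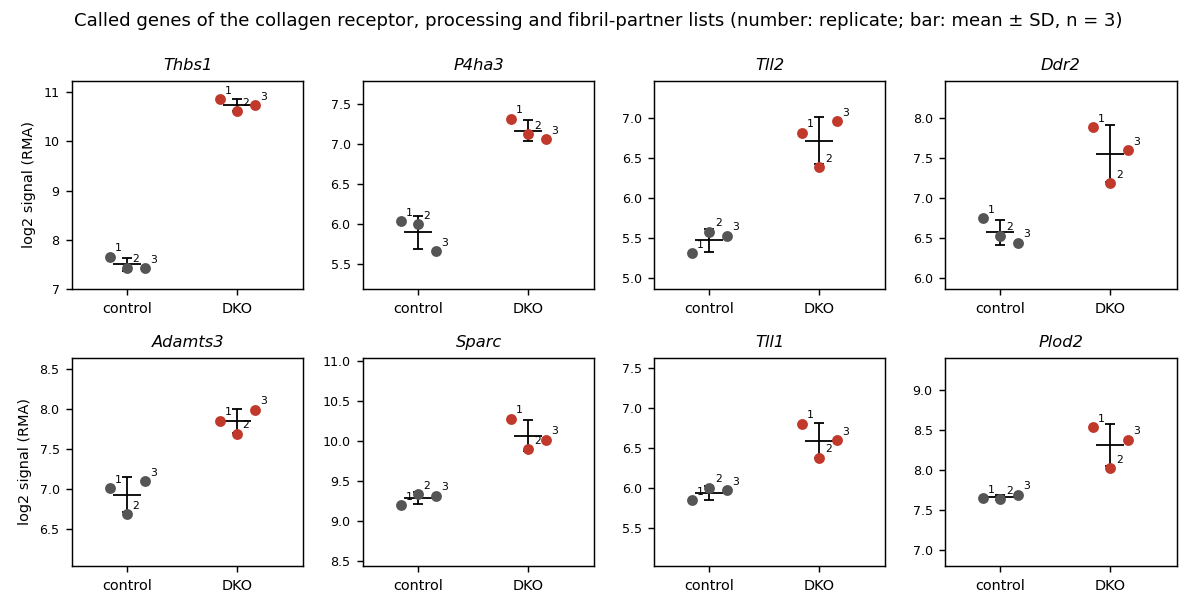
Log2 RMA signal (y axis, separate scale in each panel) of the 8 called genes of the collagen receptor, processing and fibril-partner lists in the 3 control and 3 DKO arrays, with a numbered point for each replicate and a bar for the mean ± SD. In each panel all DKO arrays lie above all control arrays, and DKO 2 is the lowest DKO array in every panel except that of P4ha3.

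One marker list of another tissue had higher sums in the arrays in which Col12a1 was high. For cortical hem and choroid plexus, 2 of 9 tested markers rose, Ttr and Lmx1a, against 1.36% of all genes tested. The median was 0.38. The summed linear signal of the list was 535.1 to 656 in control and 853.8 to 1901 in DKO. Most of this difference was Ttr, and without it the other 9 genes summed to 428.4 to 507.5 in control and 532 to 686.6 in DKO. Clic6, which is in these sums, lay below the filter limit. DKO 2 had the highest sum and the lowest Col12a1 among the DKO arrays. The calls of Ttr and Lmx1a were lost without control 1 (limma adjusted p 0.132 and 0.0583), control 3 (0.141 and 0.0540) or DKO 1 (0.106 and 0.0508), and that of Ttr also without control 2 (0.0749), with a robust variance (0.0943) and with embryo sex as a covariate (0.0502). The part of this tissue in the Col12a1 result was not tested. Of 6 tested cartilage markers, 6 surface epithelium markers and 7 microglia markers, 0 rose and 0 fell.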

How the data were processed

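The deposited table held log2 signals of 41345 rows for 6 arrays, made by RMA per the submitters' processing notes. Software version and probe build: not given in the sources used here. Since RMA makes array distributions equal, it hides any shift shared by all transcripts. Symbols came from the platform's annotation: 23521 rows had 1 symbol, 1814 several and 16010 none here. Genes with a mean below the 25th percentile of one-symbol rows were left out, leaving 16724. DKO was compared with control with limma 3.58.1 in R 4.3.3 (lmFit, eBayes, two-sided, no covariate), with Benjamini-Hochberg adjustment over all genes tested and a threshold of 0.05. SE and 95% intervals are limma's. Scanner files were not used here.

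Members, classes and lists were chosen with earlier results of these data known. Values in each array are given for called collagens, those with an absolute log2 fold change of 0.5 or more, the smallest p and highest mean in each class, and their partner chains; Col3a1, Col5a2, Col22a1 and Col24a1 were added after their values were seen, and other collagens are named to account for every member. Of the other lists called members were named, at most 6 a list. Adgrg1, Ddr1, Dcn, Lum, Acta2, Clic6, Pdgfrb, Tagln, Anpep, Rgs5, Cspg4 and Notch3 were added after their values were seen. So were Foxc1, Tbx18, Slc6a13 and the named cortical markers. On simulated data for this comparison over 16724 genes, 63.3% of genes changed by 0.5, 93.1% by 1 and 96.7% by 1.5 were recovered, with 5.35% false calls. The simulation drew independent normal noise with the same SD in both groups. These rates therefore do not carry over to genes such as Col1a1, whose SD differed between the groups. Each array correlated with the others at 0.978 to 0.994 and no pair was identical. Alternatives were the filter, the rule for several rows, repeated quantile normalization, trended or robust variance, the replicate number as a block, leaving out each array and, added after seeing the data, embryo sex.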

Additional observations from a re-analysis of the deposited data

How the results depend on the processing

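Of 409 combinations of 30 named collagens with 14 alternatives, 394 kept their direction and their side of the threshold, and Col12a1 did so in all 14, with log2 fold changes of 1.65 to 1.89 and limma adjusted p from 1.13e-04 to 0.00430. Collagens called as rising numbered 1 to 2 over the fits that left out 1 array, the addition being Col8a1, and 1 in the other alternatives; 0 fell in any. Over all genes 228 rose and 60 fell; leaving out 1 array gave 121 to 260 and 11 to 54. The genes that fell numbered 134 with the filter at the 50th percentile, 162 with a trended variance, 24 with the replicate block and 26 with embryo sex. The labels tie the replicate numbers to nothing, deviations of same-numbered arrays correlated at -0.103, 0.209 and 0.152, and 3 of 6 arrays correlated best with their own number; with the block Col12a1 stayed called (limma adjusted p 0.00382). The stricter filter moved the class medians of FACITs to -0.16, transmembrane collagens to -0.25 and multiplexins to 0.0841, with fewer genes in each. The type IV median ran from -0.0704 to 0.0112 when 1 array was left out. Signs turned for Col4a4 with repeated quantile normalization (0.0042) and for Col6a2 with embryo sex (0.0040), the cause of which was not tested. Over the fits without 1 array, 16 of the 39 uncalled collagens changed sign. Of these 7, not among the 30, stayed between -0.1497 and 0.1586 (Col13a1, Col16a1, Col17a1, Col20a1, Col5a1, Col5a3 and Col6a4), and the other 9 are as follows: Col1a1 ran from -0.37 to 0.60, Col1a2 from -0.27 to 0.39, Col3a1 from -0.37 to 0.15, Col5a2 from -0.28 to 0.0388, Col4a1 from -0.14 to 0.0061, Col4a4 from -0.0618 to 0.035, Col6a2 from -0.12 to 0.0715, Col6a3 from -0.0646 to 0.21 and Col7a1 from -0.0455 to 0.082. No detection calls were used, so how far dim rows such as Col14a1 stand above background is unknown.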

Other observations

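Of the 44 collagen genes 3 had another row with that symbol alone. The other row of Col1a2 was dimmer, at 5.32, 5.09 and 5.22 in control and 5.97, 4.93 and 5.23 in DKO, and it too was highest in DKO 1 and lowest in DKO 2. The other row of Col5a1 stood at 5.80, 5.92 and 5.99 in control and 5.75, 6.24 and 5.93 in DKO, with DKO 2 highest, where the row used for Col5a1 had DKO 2 lowest. The other row of Col6a1 had a mean of 4.43, under the filter limit.

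By RefSeq annotation (assembly GRCm38.p6), 8 pairs of collagen genes are next to each other among protein-coding genes. Col3a1 and Col5a2 are such a pair, with log2 fold changes of -0.14 and -0.17. Col4a1 and Col4a2 had -0.09 and -0.21, Col4a6 and Col4a5 0.12 and 0.20, Col6a2 and Col6a1 -0.04 and -0.12, and Col4a4 and Col4a3 -0.01 and -0.10. Of pairs with an untested gene, Col9a1 and Col19a1 had -0.13 and -0.09, and Col6a6 and Col6a5 -0.22 and -0.07. Col6a5 and Col6a4 had opposite signs, -0.07 and 0.02. None of the tested genes in these 8 pairs was called.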
